A study of Arabidopsis thaliana with 9 samples.

Results

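FLOR1 and its closest relatives in the Arabidopsis genome, the polygalacturonase-inhibiting protein genes PGIP1 and PGIP2, were followed through the floral transition of the shoot apical meristem. These 3 genes were chosen by locus (AT3G12145, AT5G06860 and AT5G06870) among the 23338 loci of the count table, and each had a row in it. Meristems of Arabidopsis thaliana, accession Col-0, were cut out by laser from plants kept under a short-day cycle (8 h light, 16 h darkness), and from plants moved to a long-day cycle (16 h light, 8 h darkness) for 1 or 3 days. The time points before the move and after 1 and 3 long days are named LD0, LD1 and LD3, and each had 3 libraries of amplified, randomly primed cDNA from total RNA. Letters A and B mark whole-transcriptome shotgun libraries and letter C a ready-to-run library. All groups shared the accession, the dissected tissue and the amplification. The study asked how the transcriptome moves from the vegetative to the transition meristem, and its title names a leucine-rich repeat (LRR) protein that promotes flowering.

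LRR proteins carry tandem repeats of a leucine-rich motif that fold into a curved surface used to bind other proteins. PGIPs are small secreted LRR proteins of the plant cell wall, known for binding polygalacturonases, the enzymes with which fungi and plants cut the pectin backbone, and for limiting fungal infection of leaves. FLOR1, listed as FLR1 in RefSeq and also named FLORAL TRANSITION AT THE MERISTEM4, has the same small LRR build, was first known as a partner of the floral homeotic protein AGAMOUS, and plants that lack it flower later than wild type.

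In the RefSeq annotation of TAIR10.1, FLOR1 lies on the minus strand of chromosome 3, and PGIP1 and PGIP2 lie next to each other on the plus strand of chromosome 5. Each of the 3 genes has 2 coding exons. The coding sequence of FLOR1 is 978 bases for a protein of 325 residues, and those of PGIP1 and PGIP2 are 993 bases each for proteins of 330 residues. Aligned codon by codon, FLOR1 shared 62.4% of bases and 55.2% of residues with PGIP1, and 59.6% of bases and 50.6% of residues with PGIP2. PGIP1 and PGIP2 shared 81.1% of bases and 76.1% of residues with each other. The stretch of 60 coding bases in which the 3 genes were most alike is printed from RefSeq TAIR10.1, 5′ to 3′, because it shows how far a read could tell them apart. It runs from coding base 289 to 348 in FLOR1 and from 301 to 360 in PGIP1 and PGIP2, with the bases identical in all 3 genes in capitals.
FLOR1: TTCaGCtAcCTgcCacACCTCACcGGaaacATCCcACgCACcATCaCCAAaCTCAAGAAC
PGIP1: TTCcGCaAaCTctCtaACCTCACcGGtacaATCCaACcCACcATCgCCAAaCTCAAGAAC
PGIP2: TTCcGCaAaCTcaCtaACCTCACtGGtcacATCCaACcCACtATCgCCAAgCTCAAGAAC
In this stretch 43 of the 60 bases were identical in all 3 genes, and PGIP1 differed from FLOR1 at 13 bases and PGIP2 from FLOR1 at 15. The longest unbroken run that FLOR1 shared with either relative was 17 bases with PGIP1 and 14 bases with PGIP2. The longest run shared by PGIP1 and PGIP2 was 26 bases, at coding bases 737 to 762 of both.
PGIP1 and PGIP2 shared run: tatcaagaaacatgttccagttcgat
A read lying within that run would match both PGIP genes alike, and the authors' treatment of reads with several matches was not given in the sources used here. Only a read of at most 26 bases fits within that run, and read length was not considered here. How far the split of reads between PGIP1 and PGIP2 is uncertain was therefore not settled. PGIP1 also overlaps AT5G06865, a long non-coding RNA gene on the opposite strand, and the use of strand in counting is not given either. AT5G06865 had 3 reads, all in the LD3 C library.

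The libraries differed widely in depth, from 97153 to 11145220 reads assigned to loci, with reads at 9773 to 17340 loci. All 7 meristem markers, among them STM, WUS and CLV3, had reads at each time point, and their summed share of a library lay between 0.0425% and 0.0893%. Seed markers were also present, with 9 storage and late-embryogenesis genes making up 1.04% to 4.82% of the reads of the LD0 libraries, 0.00084% to 1.79% at LD1 and 0.0427% to 0.239% at LD3. Each of these 9 genes had reads at each time point. Over all libraries, leaf mesophyll markers made up 0.00592% to 0.155% of reads, epidermal and trichome markers 0.0258% to 0.0843% and pollen markers 0.00092% to 0.926%, with overlapping ranges at LD0, LD1 and LD3. Vascular markers made up 0.00247% to 0.0360% at LD0, 0% to 0.0531% at LD1 and 0% to 0.00154% at LD3, so that LD3 lay below LD0. The 0% at LD3 came from LD3 A with 102019 reads, so the difference between the A libraries lies near the floor. In the deeper LD3 B and LD3 C the vascular share was 0.00154% and 0.00095%, against 0.00247% in LD0 C. The LD1 C library held the lowest share of seed markers. The labels do not say whether the libraries of a time point came from separate pools of plants, so the spread that the p-values measure may be technical. In dissected tissue a lower level cannot be told apart from fewer cells with the transcript.

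FLOR1 was well expressed in the meristem at all 3 time points and carried nearly all reads of the 3 genes. It had 4254 of the 16489004 reads of all libraries, against 5 reads for PGIP1 and 8 for PGIP2. At LD0 the FLOR1 locus had 17, 27 and 385 reads in libraries A, B and C. At LD1 it had 76, 173 and 29 reads, and at LD3 71, 489 and 2987. It was detected in 9 of 9 libraries, each above the level of 3 reads taken as the detection limit.

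On the scale of reads per 1000000 of the TMM-scaled library (scaled CPM), FLOR1 stood at 152, 256 and 237 in LD0 A, B and C. In LD1 A, B and C it stood at 501, 290 and 64.6. In LD3 A, B and C it stood at 554, 339 and 336. The 3 LD3 libraries lay above the 3 LD0 libraries without overlap, while the LD1 libraries spread across both and included the lowest value of all. The means were 215 ± 55.4 (SD, n = 3) at LD0, 285 ± 218 (SD, n = 3) at LD1 and 409 ± 125 (SD, n = 3) at LD3. Of the 9300 loci tested, 7.55% had all LD3 libraries above all LD0 libraries in the same way. Without scaling factors the LD3 and LD0 libraries overlapped, since FLOR1 had 278 reads per 1000000 reads of the library (unscaled CPM) in LD0 B and 268 in LD3 C.

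**Figure D1:**
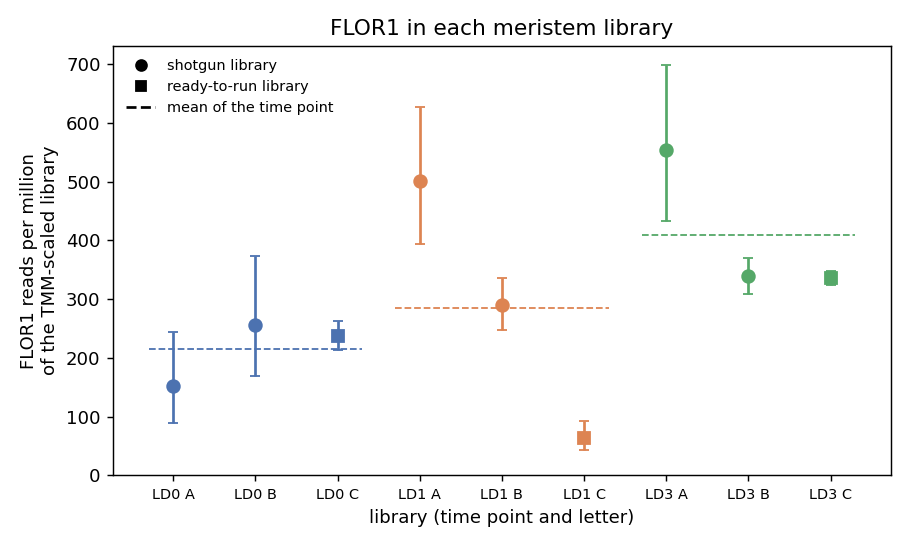
FLOR1 scaled CPM (reads per 1000000 of the TMM-scaled library, vertical axis) in each of the 9 libraries (horizontal axis), with exact 95% Poisson intervals that cover counting error only, and dashed lines for the mean of each time point. The intervals take reads as independent and are too narrow where a fragment counted in both reads. The LD3 libraries sit between 336 and 554, above the LD0 libraries at 152 to 256, and LD1 runs from 64.6 to 501.

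Ranked from the lowest, the libraries ran LD1 C, LD0 A, LD0 C, LD0 B, LD1 B, LD3 C, LD3 B, LD1 A and LD3 A. Neighbours in that order had overlapping exact 95% counting intervals, except LD3 B, whose interval ran from 309 to 370 scaled CPM, and LD1 A, whose interval ran from 394 to 627. All these intervals take reads as independent. They are too narrow where a fragment counted in both reads, which can happen in the 7 libraries with 2 read columns. The shallow libraries had wide intervals, 88.8 to 244 in LD0 A, 169 to 373 in LD0 B and 432 to 699 in LD3 A. The deepest library, LD3 C, had an interval of 324 to 348. Counting error was thus smaller than the spread between the libraries of LD1, where intervals of 43.2 to 92.7 in C and 394 to 627 in A lay far apart.

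The difference between LD3 and LD0 did not pass the test against the spread between libraries. With edgeR's quasi-likelihood F test and library preparation in the model, the log2 fold change of FLOR1 was 0.84 (SE 0.68, 95% interval -0.65 to 2.32) with a Benjamini-Hochberg adjusted p of 0.827 and an unadjusted p of 0.240. The log2 fold change of LD1 against LD0 was 0.14 (SE 0.71, 95% interval -1.42 to 1.70), with an edgeR adjusted p of 0.983. That of LD3 against LD1 was 0.70 (SE 0.69, 95% interval -0.81 to 2.21), with an edgeR adjusted p of 0.973, and it fell to 0.11 without LD1 C (edgeR adjusted p of 1.00). The joint edgeR test of any change over the 3 time points gave an unadjusted p of 0.419 and an adjusted p of 0.911. All 3 intervals include both a decrease and an increase. Beside this, the summed share of the 9 seed markers was at least 1.04% in the LD0 libraries and at most 0.239% in the LD3 libraries. That of the vascular markers was also lower at LD3, though near the floor in the shallow A libraries. Marker by marker, the log2 fold change of LD3 against LD0 was negative for 9 of 9 tested seed markers (median -5.50) and 4 of 4 pollen markers (median -3.86). It was also negative for 6 of 7 leaf mesophyll markers (median -2.53). Of 6 tested meristem markers 3 were positive and 3 negative (median 0.30), and 2 of 2 epidermal markers were positive (median 0.23). For LD3 against LD0 edgeR called 0 of them, as it called 0 of all 9300 loci. In the joint edgeR test 6 of 9 seed markers and 1 of 6 meristem markers had an unadjusted p under 0.05, against 5.74% of all loci. The part of these marker differences in the FLOR1 values was not tested.

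The background of these tests was low in calls. At an adjusted p under 0.05, edgeR called 0 of 9300 loci (0%) in each of the 3 pairwise comparisons and 1 (0.0108%) in the joint test. With the replicate letter as a block it called 2 for LD3 against LD0, 2 in the joint test and 0 in the other comparisons, and FLOR1 was in none of these. The share of loci at an unadjusted p under 0.05 was 6.37% when LD1 was set against LD0, 7.92% when LD3 was set against LD0, 4.08% for the step from LD1 to LD3 and 5.74% in the joint test. DESeq2 called 30, 296 and 6 loci in the pairwise comparisons and limma-voom 0, 508 and 0, and FLOR1 was in none of these sets. The 1 locus called in the joint test was AT1G43800, FLORAL TRANSITION AT THE MERISTEM1, a stearoyl-ACP desaturase gene, with at most 2 reads in each LD0 and LD1 library and 52, 327 and 3708 reads in LD3 A, B and C (edgeR adjusted p of 0.0180). It is named because the count is 1, after its values were seen. No locus was called in the joint edgeR test when any LD3 library, LD1 C, LD0 C or LD0 A was left out, with libraries A and B alone, or with 1 read column per library.

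The median log2 fold change of all tested loci was -0.06 for LD1 against LD0 and 0.09 for LD3 against LD0. Scaling moved it from -0.18 with RLE factors to 0.30 with upper-quartile factors for LD3 against LD0. Taken relative to that median, FLOR1 differed between LD3 and LD0 by 0.75 with TMM factors, 0.77 with RLE factors, 0.77 with upper-quartile factors and 0.75 with no scaling factors. These values are close by construction, since a factor shifts all loci of a library alike.

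The 2 library preparations are given apart, since the lowest LD1 value came from the single ready-to-run library of that time point. In the shotgun libraries the mean FLOR1 level was 204 scaled CPM at LD0, 395 at LD1 and 446 at LD3, each over 2 libraries. In the ready-to-run libraries, with 1 per time point, it was 237 at LD0, 64.6 at LD1 and 336 at LD3. FLOR1 was higher at LD3 than at LD0 in both preparations, and LD1 lay above LD0 in the shotgun libraries and below it in the ready-to-run library. With 1 ready-to-run library at LD1, the preparation and that library cannot be told apart. LD1 C had reads at 9909 loci from 714559 reads, against 15315 loci from 711363 reads in LD1 B. Its TMM factor of 0.657 was the lowest of the 9 libraries. The part of this in its FLOR1 value was not tested. Within each letter FLOR1 was higher at LD3 than at LD1 and than at LD0. The share of tested loci with the same order was not computed, and in letter C the step from LD1 starts at the lowest library. With the shotgun libraries alone the log2 fold change of LD1 against LD0 was 0.75 (edgeR adjusted p of 0.991) and that of LD3 against LD0 was 0.89 (edgeR adjusted p of 0.654). Leaving out LD1 C alone gave 0.83 for LD1 against LD0 (edgeR adjusted p of 0.997), leaving out LD1 A gave -0.38 and leaving out LD0 A gave -0.25. Leaving out LD0 C raised LD3 against LD0 to 1.504 (edgeR adjusted p of 0.9501).

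**Figure D2:**
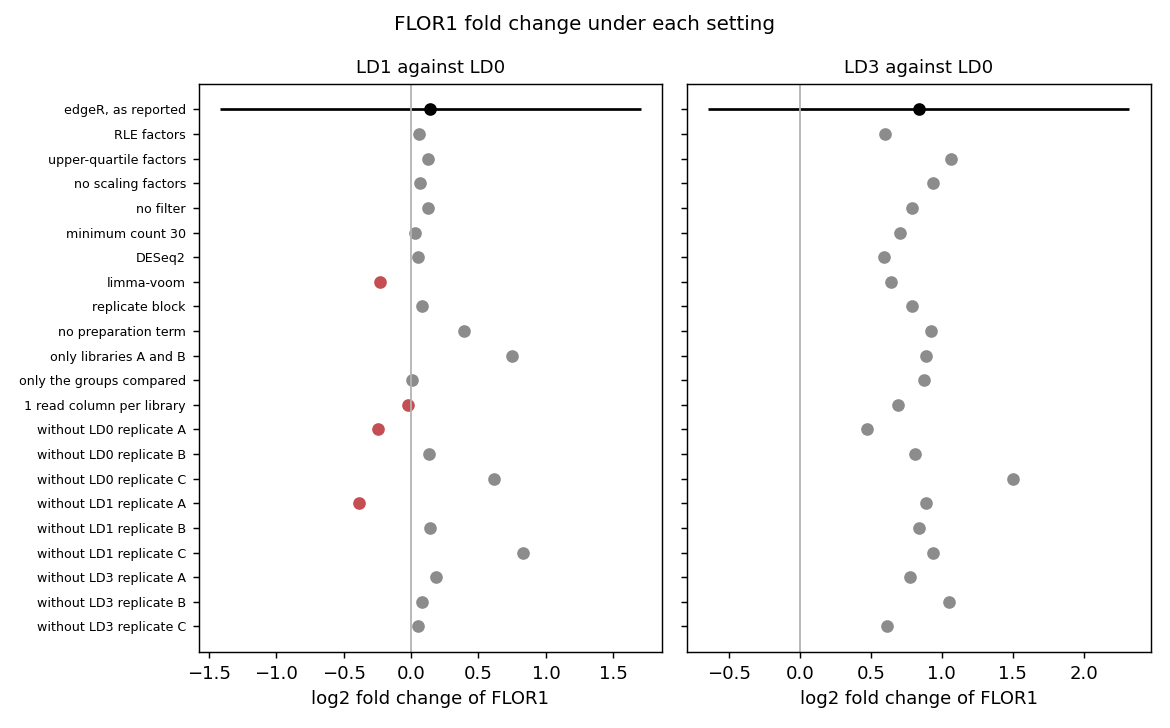
Log2 fold change of FLOR1 (horizontal axis) for LD1 against LD0 and LD3 against LD0 under each setting (vertical axis), in black with its 95% interval as reported and in red where it is negative. LD3 against LD0 runs from 0.47 to 1.504, and LD1 against LD0 from -0.38 to 0.83.

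Pooling the reads of each time point gave FLOR1 179 unscaled CPM at LD0 (exact 95% interval 163 to 197), 179 at LD1 (159 to 202) and 283 at LD3 (273 to 292). The pooled ratio was 1.58 for LD3 against LD0 (exact 95% interval 1.43 to 1.75) and 1.00 for LD1 against LD0 (0.857 to 1.17). These intervals cover counting error only and the deepest library of a group weighs most, so they say nothing of the spread between libraries. They too take reads as independent. Leaving out 1 library at a time moved the ratio of LD3 to LD0 between 1.32 and 2.23 and that of LD1 to LD0 between 0.698 and 1.66. The latter reached 1.66 without LD1 C. In the authors' deposited tables of comparisons, the log2 fold change of FLOR1 was 0.39 for LD1 against LD0 (unadjusted p of 0.797), 0.96 for LD3 against LD0 (unadjusted p of 0.521) and 0.57 for LD3 against LD1 (unadjusted p of 0.709).

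For 7 libraries the table holds separate columns for read 1 and read 2, which give FLOR1 a second count from the same library. In LD3 C the FLOR1 level was 272 unscaled CPM in read 1 and 264 in read 2, and in LD0 C 184 and 168. LD1 C was the library with the largest ratio between them, with 20.5 unscaled CPM in read 1 (7 reads) and 58.9 in read 2 (22 reads). Both columns of LD1 C lay below every column of the other libraries, so the low FLOR1 value of LD1 C was present in both reads.

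The closest relatives of FLOR1 were at or near the detection limit. PGIP1, whose transcript is known to rise in leaves exposed to pectin fragments, had 0 reads in the 3 LD0 and the 3 LD1 libraries, 0 in LD3 A, 1 in LD3 B and 4 in LD3 C. PGIP2, known to respond to jasmonate in leaves, had 5 reads in LD0 C, 3 in LD3 B and none in the other 7. Neither gene passed the filter on low counts, so neither was tested with FLOR1. Fitted with no filter, PGIP1 had an edgeR adjusted p of 0.921 in the joint test and PGIP2 of 0.911.

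What a count of 0 allows depended on the library. In the shallow libraries LD0 A, LD0 B, LD1 A and LD3 A, 3 reads correspond to 26.9, 28.5, 19.8 and 23.4 scaled CPM, so PGIP transcript below these levels would not have been detectable there. In LD3 C, 3 reads correspond to 0.337 scaled CPM, where PGIP1 stood at 0.450 and PGIP2 at 0 reads. Pooled, PGIP1 had 0.399 unscaled CPM at LD3 (exact 95% interval 0.129 to 0.930). At LD0 and LD1 it had 0 reads, where 3 reads correspond to 1.25 and 1.94 unscaled CPM and the exact 95% intervals reach 1.54 and 2.38. The LD3 level of PGIP1 is below these limits, so a difference between time points was not detectable at this depth. PGIP2 had 2.09 unscaled CPM at LD0 (exact 95% interval 0.678 to 4.88) and 0.239 at LD3 (0.0493 to 0.699), a ratio of 0.114 (0.0178 to 0.588) that rests on 5 and 3 reads from 1 library each. Without LD3 C the ratio was 1.03. The authors' deposited table gives PGIP2 a log2 fold change of -1.32 for LD3 against LD0 with an unadjusted p of 1.

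**Figure D3:**
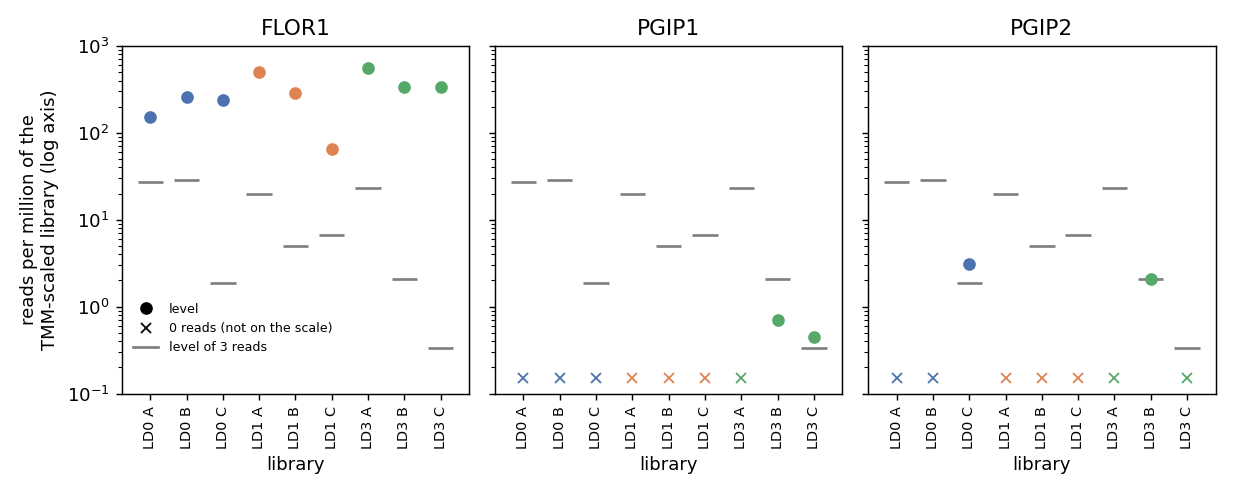
Scaled CPM (vertical log axis) of FLOR1, PGIP1 and PGIP2 in each library (horizontal axis), with grey bars at the level of 3 reads and crosses for 0 reads. FLOR1 lies above the bar in 9 of 9 libraries, while the PGIP genes lie at 0 reads or close to the bar.

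FLOR1 made up 98.7% of the reads of the 3 genes in LD0 C (385 of 390 reads, Clopper-Pearson 95% interval 97.0% to 99.6%), 99.2% in LD3 B (489 of 493, 97.9% to 99.8%) and 99.9% in LD3 C (2987 of 2991, 99.7% to 99.96%). In the other 6 libraries it made up 100% of 17 to 173 reads, where 3 reads correspond to a PGIP share of 17.6% in LD0 A down to 1.73% in LD1 B. Dividing by coding length left 98.7% in LD0 C. The mean share was 99.6% at LD0, 100% at LD1 and 99.7% at LD3. The exact two-sided permutation test over libraries gave p = 1 for LD3 against LD0, p = 1 for LD1 against LD0 and p = 0.4 for LD3 against LD1, where the smallest p possible with 3 against 3 libraries is 0.1. The share was close to its upper bound throughout, so it has little room to differ.

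Per length of transcript, FLOR1 ranked among the more abundant transcripts of the meristem. It had 145 ± 37.4 scaled CPM per kb at LD0, 192 ± 147 at LD1 and 276 ± 84.3 at LD3 (SD, n = 3 each). It was ranked against the 21663 loci with a RefSeq transcript length, loci with 0 reads included. Its level lay above 94.6% to 96.5% of loci in the LD0 libraries, 96.5% to 98.6% in the LD3 libraries and 86.8% to 98.4% in the LD1 libraries. The number of loci with reads ran from 9773 to 17340 per library, so these percentages are not strictly comparable between libraries. Averaged over the 9 libraries it stood at 205 scaled CPM per kb, against 0.109 for PGIP1 and 0.491 for PGIP2.

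More distant relatives were mostly at low levels. The 3 proteins closest to any of the 3 by BLASTP bit score were DRT100 (34.1% identity to PGIP2 over 343 residues), AT3G20820 (31.6% to FLOR1 over 351) and AT5G12940 (30.7% to PGIP2 over 378). Of the 20 closest relatives, 16 had a row in the count table and 5 passed the filter, and 0 of these 5 had an unadjusted p under 0.05 in the joint edgeR test, against 5.74% of all loci. None of the 16 had a mean level per kb above that of FLOR1. ERECTA (ER), the LRR receptor kinase known for its role in stem and organ growth, came closest at 70.6 scaled CPM per kb and is named after its value was seen.

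DRT100, a small LRR gene known from a screen for tolerance to DNA damage in bacteria, had 29 reads in 6 libraries, with means of 3.14 scaled CPM per kb at LD0, 1.77 at LD1 and 2.40 at LD3 and overlapping libraries. AT5G12940 had 9 reads in 2 libraries. AT3G20820 behaved differently, with 324 of its 397 reads in the single library LD1 C, where it stood at 455 scaled CPM per kb. In the other 8 libraries it lay between 0 and 11.3 scaled CPM per kb. LD1 C was thus the library with the lowest FLOR1 and the highest AT3G20820 level. Whether anything in that library moved both was not tested.

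**Figure D4:**
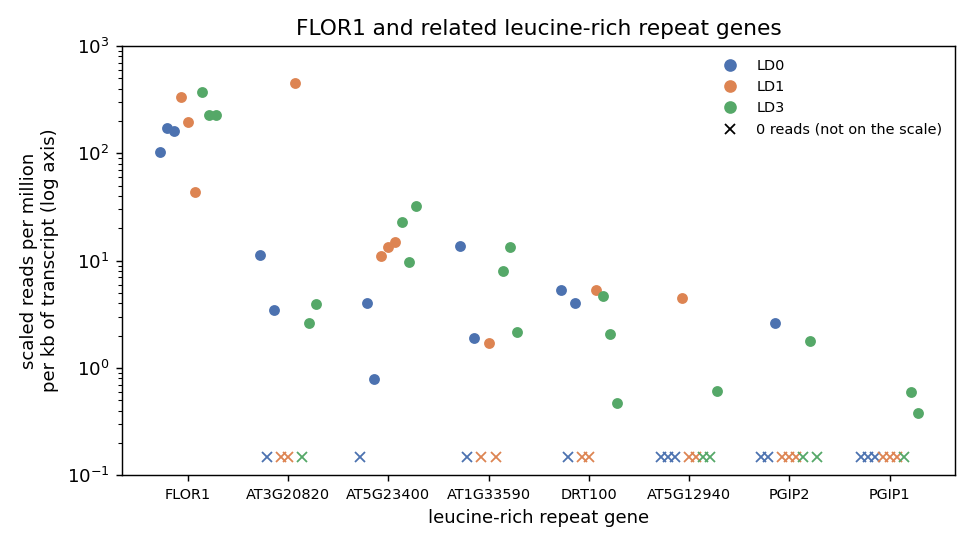
Scaled CPM per kb of transcript (vertical log axis) of FLOR1, PGIP1, PGIP2 and 5 related LRR genes (horizontal axis) in each library, coloured by time point, with crosses for 0 reads. FLOR1 lies between 43.6 and 374 in all 9 libraries, and only AT3G20820 in LD1 C reaches that range among the genes shown.

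Among the 9 small extracellular LRR relatives listed by hand, 2 passed the filter, and 1 of them, AT5G23400, had an unadjusted p under 0.05 in the joint edgeR test, against 5.74% of all loci. AT5G23400 had 0, 1 and 3 reads in the LD0 libraries, 4, 19 and 16 in the LD1 libraries and 7, 33 and 685 in the LD3 libraries. In scaled CPM it stood at 0, 9.498 and 1.85 at LD0, at 26.3, 31.9 and 35.6 at LD1, and at 54.6, 22.9 and 77.0 at LD3. The LD1 and LD3 libraries lay above the LD0 libraries without overlap, as did 4.3% of tested loci for LD1 and 7.55% for LD3. Its log2 fold change was 3.47 (SE 1.40) for LD1 against LD0 and 4.13 (SE 1.41) for LD3 against LD0, with edgeR adjusted p-values of 0.772 and 0.560, so neither passed the threshold. These fold changes rest on 4 LD0 reads. DESeq2 gave LD3 against LD0 an adjusted p of 0.0250.

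The neighbour of FLOR1 on the same strand, AT3G12150, gives a local comparison. It stood at 53.8, 76.0 and 38.2 scaled CPM at LD0, 65.9, 75.4 and 13.4 at LD1, and 78.0, 72.7 and 27.1 at LD3. Its 3 groups overlapped, LD1 C was again the lowest library, and the joint edgeR test gave an adjusted p of 0.986. On the side of PGIP2 away from PGIP1, AT5G06890 was at 0 reads in all but 3 libraries. The pseudogene AT3G12143 on the other side of FLOR1 and FTIP1 beside PGIP1 were not analysed here.

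The lists around FLOR1 and the PGIP genes showed few members with values large enough to test. Of 14 genes for pectin synthesis and remodelling, the wall polymer that polygalacturonases cut, 5 were tested, 0 had an unadjusted p under 0.05 in the joint edgeR test, and the median log2 fold change for LD3 against LD0 was 0.21 beside 0.09 for all tested loci. Of 7 plant polygalacturonases, the class of enzyme that PGIPs bind, 6 had a row and 0 passed the filter. Of 14 defence and wound response genes, induced where PGIPs are known to act, 2 were tested, 0 had an unadjusted p under 0.05 in the joint test, and they went opposite ways, JAZ1 with a log2 fold change of -3.07 (SE 3.06) and JAZ10 with 1.03 (SE 1.49). Of 4 regulators known for PGIP genes and their targets 2 were tested, STOP1 and ABI5, with 0 under that p and a median of -3.42. ABI5, a transcription factor of abscisic acid signalling in seeds, had a log2 fold change of -5.67 (SE 2.81, edgeR adjusted p of 0.668) beside the lower share of seed markers at LD3, and the part of these in its value was not tested. Of 9 flowering partners 5 were tested, 1 had an unadjusted p under 0.05, and the median was 0.75. The share of all tested loci under that p in the joint test was 5.74%. After adjustment over all loci edgeR called 0 members of these lists. The summed share of the defence list varied from 0.000996% to 0.0669% of a library at LD3 alone.

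The flowering gene was SOC1, a MADS-box transcription factor that integrates floral signals and is known to be induced in the meristem by long days. It stood at 0, 9.498 and 8.01 scaled CPM at LD0, 329, 210 and 97.9 at LD1, and 234, 209 and 186 at LD3. All LD1 and LD3 libraries lay above all LD0 libraries, LD1 C included, as did 4.3% of tested loci for LD1 and 7.55% for LD3. Its log2 fold change for LD3 against LD0 was 4.84 (SE 0.92), with an unadjusted p of 0.000233 and an edgeR adjusted p of 0.316. DESeq2 gave an adjusted p of 0.000459 and limma-voom of 0.0280. With no filter on low counts edgeR gave an adjusted p of 0.00253, so the call depends on both the tool and the filter. FLOR1 had an adjusted p of at least 0.436 for LD3 against LD0 under all 21 alternatives. SOC1 therefore separated the short-day libraries from the long-day ones by a wide gap, whereas FLOR1 was already at 152 to 256 scaled CPM before the first long day. AGAMOUS was not analysed here.

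The loci most like FLOR1 in pattern were taken as the 5 tested loci with the highest Pearson r of log2 CPM over the 9 libraries, among 9299 compared. They were AT2G38710 (r = 0.96), AT5G39570 (r = 0.95), WRKY21 (r = 0.95), AT3G02190 (r = 0.93) and AT2G25950 (r = 0.93). WRKY21 encodes a WRKY transcription factor. The median r to FLOR1 over all loci was 0.08, and the libraries share depth and preparation across loci. Without LD1 C and LD3 A, the 2 libraries farthest from the median FLOR1 level, the 5 values fell to between 0.77 and 0.91 over 7 libraries. AT2G38710, the most alike, stood at 53.8, 57.0 and 61.0 scaled CPM at LD0, 119, 68.7 and 13.4 at LD1, and 125, 106 and 67.8 at LD3, so that it shared with FLOR1 the high A libraries of LD1 and LD3 and the low LD1 C. For LD3 against LD0 its log2 fold change was 0.63 (SE 0.83, edgeR adjusted p of 0.907). SOC1 had an r of 0.44 to FLOR1 over 9 libraries, of 0.88 without LD1 C and of 0.91 without LD1 C and LD3 A. Without LD1 C the 5 loci had an r of 0.81 to 0.89. In both reduced sets SOC1 thus lay within the range of the 5 loci, so their place above it depends on LD1 C. AT3G12150, the neighbour of FLOR1, had an r of 0.73 over 9 libraries and of 0.26 without LD1 C. The r over 9 libraries of SOC1 and that of AT3G12150 therefore rest on LD1 C.

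**Figure D5:**
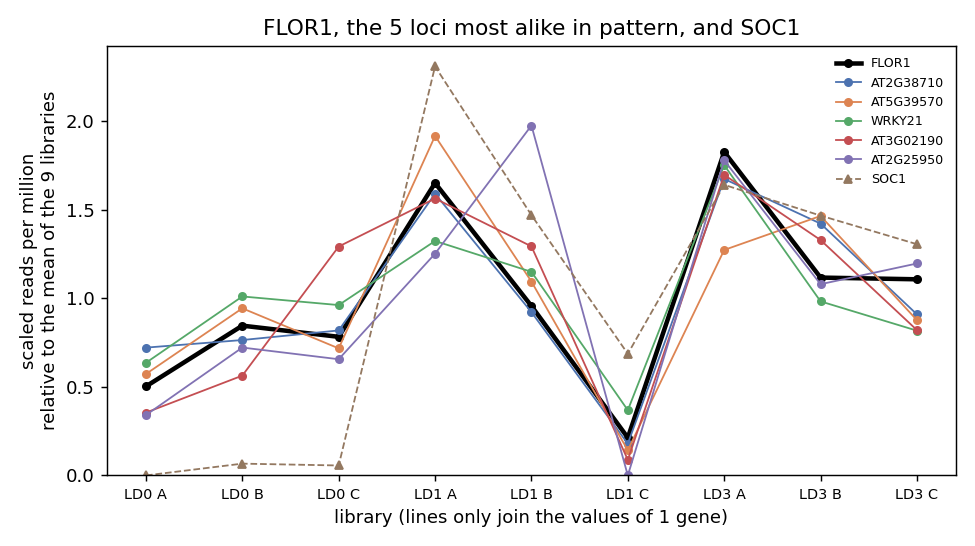
Scaled CPM relative to the mean over the 9 libraries (vertical axis) of FLOR1, the 5 loci most alike in pattern and SOC1, by library (horizontal axis). FLOR1 and the 5 loci share a low LD1 C value, and SOC1 stands apart by its values at or near 0 in the LD0 libraries.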

How the data were processed

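Shoot apical meristems were laser-dissected and RNA was amplified and randomly primed, per the labels' protocols. The authors deposited read counts per locus in 16 columns for 9 libraries, and 3 tables of comparisons that hold log2 concentrations, log2 fold changes and unadjusted p-values, with edgeR named in the submitters' processing notes. BLASTN 2.2.13 or 2.2.21 matched the reads, per the file headers. The build, match filters, strand and multiple matches were not given in the sources used here. Empty cells (49.0%) were read as 0, and a library's columns were summed, so a fragment can count in both reads. All exact and Clopper-Pearson intervals take reads as independent and are too narrow where this happens.

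The summed counts were tested by the quasi-likelihood F test of edgeR 4.0.16, run in R 4.3.3 (TMM, filterByExpr with a minimum count of 10, time point plus preparation, 9300 loci, 5 residual degrees of freedom), and the test was tested on simulated data. Deviations of libraries with the same letter had r of 0.07 to 0.35, over 0.1 in every pair of LD3 with LD0 and of LD3 with LD1 and below it in 1 pair of LD1 with LD0 (8 of 9 pairs), and 9 of 9 libraries correlated best with their own letter. By that measure the letters pair the libraries of LD3 with those of LD0 and LD1, so a fit with the letter as a replicate block was set beside the one without it. The letter also goes with preparation (C) and with low depth (A), and whether it marks shared material was not tested. Limits are 3 reads. PGIP1 and PGIP2 were dropped by the filter and given by their reads. Alternatives were DESeq2 1.42.0, limma 3.58.1, other scaling, filters and libraries. TAIR10.1 gave sequences, lengths and neighbours by locus (23073 loci matched), and BLASTP 2.17.0 the relatives. The members and lists were chosen with earlier results of these data known. Named genes were the members, their closest proteins and neighbours, the 5 loci most alike to FLOR1, up to 4 per list with an unadjusted joint p under 0.05, SOC1 and AGAMOUS.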

Additional observations from a re-analysis of the deposited data

How the results depend on the processing

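FLOR1 for LD3 against LD0 kept its positive sign and stayed above an adjusted p of 0.05 under all 21 alternatives, from 0.47 to 1.504 on the log2 scale. LD3 against LD1 did so too, from 0.11 without LD1 C to 1.27 without LD1 A. LD1 against LD0 turned negative with limma-voom (-0.23) and with 1 read column per library (-0.026), and ran from -0.38 to 0.83 when 1 library was left out at a time. The joint test of FLOR1 kept an adjusted p between 0.469 and 1.00. The cause of these moves was not tested. The FLOR1 share of the reads of the 3 genes for LD3 against LD0 ran from -0.32 to 0.36 percentage points with 1 library left out at a time, and was negative without LD0 C (-0.32) and without LD3 A (-0.0452).

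With the replicate block the log2 fold change of FLOR1 was 0.79 for LD3 against LD0 (edgeR adjusted p of 0.912) and 0.71 for LD3 against LD1 (edgeR adjusted p of 0.998). It was 0.08 for LD1 against LD0 (edgeR adjusted p of 0.996), and the block changed no call of FLOR1. With no filter edgeR called 107, 367 and 186 loci in the pairwise comparisons and 433 in the joint test, where DESeq2 called 36 and limma-voom 41. Depth limits LD0 A, LD0 B, LD1 A and LD3 A, where 3 reads correspond to 19.8 to 28.5 scaled CPM, and with it any statement on the PGIP genes. LD1 C is limited in another way, with reads at 9909 loci against 15315 in LD1 B at a similar depth.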
